A study of Mus musculus with 4 samples.

Results

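The cells described here were single T cells from the blood of MC-38 tumor-bearing mice, and the T cells of mice given blocking anti-PD-L1 antibody were set against those of untreated mice. T cells were taken by a fixed rule from the raw counts. A cell was kept if it had 200 to 2900 genes detected, without counting mitochondrial, ribosomal and hemoglobin genes, and at least 1 unique molecular identifier (UMI, one captured transcript) of *Cd3d*, *Cd3e* or *Cd3g*, which encode the CD3 chains of the T cell receptor complex. The rule kept 697 of 862 deposited cells of the untreated library (80.9%) and 1317 of 1451 cells of the anti-PD-L1 library (90.8%), which is 2014 of the 5434 cells of the series. Of the cells that were not kept, 86 untreated and 115 anti-PD-L1 cells were within the gene limits but had no Cd3 UMI. Fewer than 200 genes were detected in 78 untreated and 5 anti-PD-L1 cells, and more than 2900 in 1 and 14. The untreated library thus held more cells with few genes.

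All mice were C57BL/6 and carried subcutaneous MC-38 tumors, a mouse colon adenocarcinoma line, and were female and between 6 and 8 weeks old at the start. Blood was taken on day 18, and the anti-PD-L1 mice had received the antibody on days 10, 13 and 17, while the untreated mice received no immunotherapy. The other 2 libraries came from mice given agonistic anti-OX40 with CpG (anti-OX40) or both treatments (PDOX), and they enter only as values beside the comparison. Each group was 1 droplet library (10x Chromium 3′) of T cells enriched with a T cell isolation kit, and the deposited record speaks of 1 mouse per treatment, so mouse, library and treatment cannot be told apart. No test of the treatment was therefore possible and no p-value is given. Levels are UMIs per 10000 UMIs, summed over the cells of a library, and their intervals are exact 95% Poisson intervals. Shares of cells carry exact Clopper-Pearson intervals, ratios of anti-PD-L1 to untreated carry exact conditional binomial intervals, and all of them cover counting error only.

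The untreated T cells held 1157478 UMIs and the anti-PD-L1 T cells 2506171, with medians of 1568 and 1731 UMIs and 894 and 957 genes per cell. The libraries shared 1 cell barcode. *Cd8a* or *Cd8b1* UMIs without *Cd4* were found in 324 untreated T cells (46.5%) and in 653 anti-PD-L1 T cells (49.6%), called CD8 cells below. *Cd4* UMIs without *Cd8a* or *Cd8b1* were found in 102 (14.6%) and 197 (14.96%), called CD4 cells. Both were found in 26 and 67 cells, and neither in 245 (35.2%) and 400 (30.4%). With every cell thinned to 750 UMIs, the CD8 share was 41.7% and 43.0% and the CD4 share 9.002% and 9.72%, so the lineages held nearly the same parts of both libraries. The summed level of the T cell marker list was 78.4 UMIs per 10000 in untreated and 81.2 in anti-PD-L1 cells.

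Programmed death ligand 1 (PD-L1, encoded by *Cd274*) on tumor and myeloid cells engages PD-1 on T cells and restrains signals from the T cell receptor and from CD28, and antibodies to PD-L1 lift this restraint. CD8 T cells that are activated leave the naive state, lose homing receptors of lymph nodes and gain granzymes, killer cell lectin receptors, chemokines and adhesion molecules. Interferons, which activated T cells and many other cells release, act on receptors at the cell surface and switch on a broad set of antiviral genes, guanylate-binding proteins and genes of antigen presentation by MHC class I.

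Some cells that passed the rule carried many transcripts of other lineages, and they are described first because several ratios rest on them. At least 10 UMIs of a list of epithelial, myeloid or NK cell, B cell, neutrophil, platelet or NK cell genes were found in 33 untreated T cells (4.73% of the cells and 11.3% of their UMIs) and in 50 anti-PD-L1 T cells (3.80% and 10.02%). Their median Cd3 count was 1 UMI, against 7 in the remaining T cells. They were also larger, with medians of 3325 and 4464.5 UMIs against 1551 and 1715. Myeloid or NK genes marked 20 and 28 of them, B cell genes 14 and 24, and epithelial genes 3 and 9. The 3 epithelial-marked untreated cells held 94.1% of the 2778 UMIs of epithelial genes in that library, and the 9 anti-PD-L1 cells held 95.7% of 18361. The other T cells therefore carried few of these transcripts in either library.

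**Figure D1:**
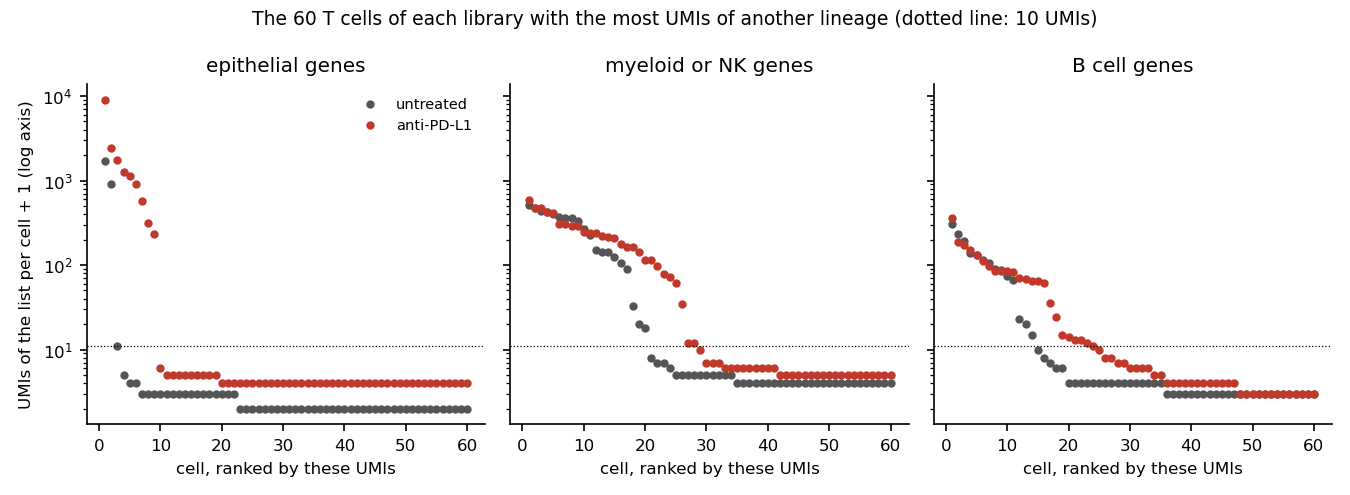
UMIs of epithelial, myeloid or NK, and B cell genes in the 60 T cells of each library with the most of them, ranked (x axis) and drawn as UMIs plus 1 on a log axis (y axis). The dotted line marks 10 UMIs. For epithelial genes, 3 untreated and 9 anti-PD-L1 cells lie on or above it. The untreated curve drops steeply between rank 2 (916 UMIs) and rank 3 (10 UMIs, on the line), and the anti-PD-L1 curve between rank 9 (231 UMIs) and rank 10 (5 UMIs).

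Several genes with large ratios over all cells of the rule had most of their UMIs in these rare cells. *Mt1*, a metallothionein, had no UMI in untreated T cells and 137 in anti-PD-L1 T cells, all in 3 cells, and 1 was left without the marked cells. *Psca*, an epithelial surface antigen, had 59 and 1318 UMIs, a ratio of 10.3 (7.95 to 13.6), and 2 and 36 UMIs without them. *Chil3*, a chitinase-like protein of macrophages, had 109 and 48 UMIs, and 9 and 2 without them. Over all T cells of the rule, the monocyte list was lower in anti-PD-L1 cells (53.5 and 34.7 UMIs per 10000, ratio 0.649), as were the B cell list (16.7 and 10.1, ratio 0.605) and the NK cell list (8.90 and 7.01, ratio 0.788). Without the marked cells, the monocyte list was at 8.45 and 8.43 (ratio 0.999), the B cell list at 3.07 and 2.20 (0.718) and the NK cell list at 0.536 and 0.851 (1.59). Among the gamma-delta T cell markers, 8 and 6 UMIs were found, and basophil markers had 0 and 1. Because of these cells, ratios were computed for all cells of the rule and for the 664 untreated and 1267 anti-PD-L1 T cells left without them (1026559 and 2255063 UMIs), called lineage-filtered cells. Not every ratio is printed for both sets, and where a single set is given it is mostly the lineage-filtered cells. The lineage-filtered cells include 317 and 640 CD8 cells and 98 and 196 CD4 cells. The limit of 10 UMIs was set after the data were seen.

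In all T cells of the rule, 4964 genes had at least 100 UMIs in both libraries together. Of them, 138 (2.78%) were at least 1.5-fold higher in anti-PD-L1 cells by their ratio and 146 (2.94%) at least 1.5-fold lower. In CD8 cells these were 120 (4.12%) and 97 (3.33%) of 2914 genes, and in CD4 cells 38 (4.77%) and 34 (4.27%) of 797. In lineage-filtered cells, 120 (2.62%) and 114 (2.49%) of 4578 genes passed in all T cells, 101 (3.62%) and 76 (2.72%) of 2792 in CD8 cells, and 35 (4.79%) and 18 (2.46%) of 731 in CD4 cells. The median log2 ratio over all genes that entered was −0.04 in all, −0.03 in CD8 and 0.07 in CD4 cells of the rule, and −0.03, −0.01 and 0.03 in lineage-filtered cells. In CD8 cells 92 of the higher genes were found in both sets of cells, which is 76.7% of the rule's and 91.1% of the filtered list. In CD4 cells, where few cells carried the counts, only 7 lower genes were shared (20.6% and 38.9%). The anti-PD-L1 library was the larger, so a gene with few untreated UMIs could enter through it alone. For lists that hold such genes, the number of entered genes above 1 or past 1.5-fold is no support for a direction.

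**Figure D2:**
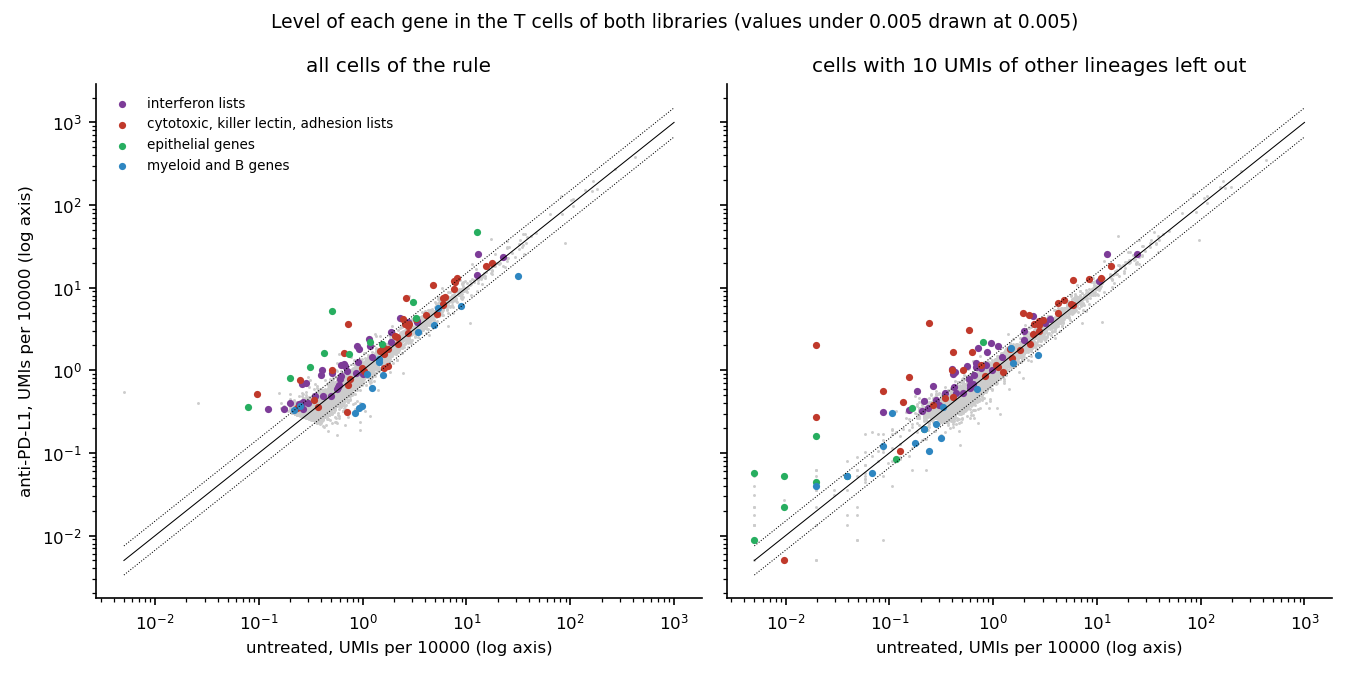
Level of each gene in untreated (x axis) and anti-PD-L1 T cells (y axis), in UMIs per 10000 on log axes, for all cells of the rule (left) and lineage-filtered cells (right); dotted lines mark 1.5-fold and values under 0.005 are drawn at 0.005. Several epithelial genes lie above the upper line on the left and near the floor on the right, while many interferon genes and some genes of cytotoxicity, killer cell lectins and adhesion lie above it in both panels and the rest lie between the lines or below.

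Ranked by the end of the interval nearest to 1, the 10 highest genes of all T cells of the rule were *Mt1*, *Psca*, *Ltf*, *Gzma*, *Gsto1*, *Klrc1*, *Krt7*, *Elf3*, *Krt13* and *Ifitm1*, of which *Krt7* and *Krt13* are keratins and *Elf3* an epithelial transcription factor. In lineage-filtered cells they were *Ifitm1*, *Gzma*, *S100a4*, *Klrc1*, *Gzmb*, *Lgals3*, *Ccl5*, *S100a6*, *Gsto1* and *Isg15*. This second group holds killing and motility genes of effector T cells, antiviral genes and *Gsto1*, a transcript that rare cells also carry and that is described below. Within CD8 cells of the rule, *Ifitm1*, *Gsto1*, *Csta1*, *AA467197*, *BC100530* and *Mal* led. *Csta1* had 0 and 153 UMIs there and *BC100530* 1 and 169, but without the marked cells they had 0 and 3, and 0 and 4.

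Antiviral genes induced by interferon were higher in anti-PD-L1 cells of both lineages. Their summed level was 68.0 and 95.3 UMIs per 10000 in CD8 cells of the rule, and 67.7 and 94.0 in lineage-filtered CD8 cells, which is 1.39-fold (1.34 to 1.44). In lineage-filtered CD4 cells it was 78.7 and 112, a ratio of 1.42 (1.33 to 1.52), and the CD4 cells of the rule had a ratio of 1.43. In lineage-filtered CD8 cells 20 of the 21 list genes that entered had a ratio above 1, 8 were at least 1.5-fold higher and none was 1.5-fold lower, and the median log2 ratio was 0.41. In CD4 cells all 8 that entered were above 1, 2 of them at least 1.5-fold, with a median of 0.42. Over all lineage-filtered T cells, 27 of 27 were above 1 and 13 at least 1.5-fold higher (median log2 ratio 0.57). Members with few untreated UMIs, such as *Ifit3* and *Oasl2*, entered through the anti-PD-L1 library. These tallies and medians are therefore no support for a direction. The summed levels hold every list member matched by symbol, whether it entered or not.

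*Ifi27l2a*, an interferon-induced mitochondrial protein, had the most UMIs of the list members that were past 1.5-fold. In lineage-filtered CD8 cells it was at 10.1 UMIs per 10000 in untreated and 22.2 in anti-PD-L1 cells (528 and 2758 UMIs), which gave a ratio of 2.19 (1.997 to 2.41). Among CD4 cells, which started higher, it was at 16.2 and 31.0 (238 and 989 UMIs) and the ratio was 1.92 (1.66 to 2.22). It was spread over most cells. At least 1 UMI was found in 57.7% and 81.4% of CD8 cells and in 72.4% and 88.8% of CD4 cells. After thinning every cell to 750 UMIs, which leaves 290 and 610 CD8 and 88 and 185 CD4 cells, the shares were 40.3% and 63.4%, and 55.7% and 77.3%.

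*Isg15*, a ubiquitin-like modifier made in response to type I interferon, had 31 and 240 UMIs in lineage-filtered CD8 cells, a ratio of 3.25 (2.23 to 4.89). It was found in 25 and 131 of these cells (7.89% and 20.5%, and 3.45% and 10.3% thinned). In CD4 cells it had 8 and 35 UMIs, with a ratio of 2.02 and an interval of 0.920 to 5.04 that includes 1, and in the CD4 cells of the rule its ratio was 1.09. *Ifit1*, which binds viral RNA, had 16 and 109 UMIs in CD8 cells, 2.86-fold, and 5 and 32 in CD4 cells, which is 2.95-fold (1.14 to 9.71). Its shares of cells were 4.42% and 11.1% in CD8 and 4.08% and 12.8% in CD4 cells, and 1.38% and 5.25%, and 2.27% and 6.49%, after thinning. *Irf7*, the master regulator of type I interferon genes, had ratios of 2.18 and 1.85 in CD8 and CD4 cells. Over all lineage-filtered T cells, *Ifit3* had a ratio of 2.46 (1.62 to 3.86; 27 and 146 UMIs) and *Oasl2*, a 2′-5′ oligoadenylate synthetase-like protein, 3.04 (1.87 to 5.22; 19 and 127 UMIs).

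**Figure D3:**
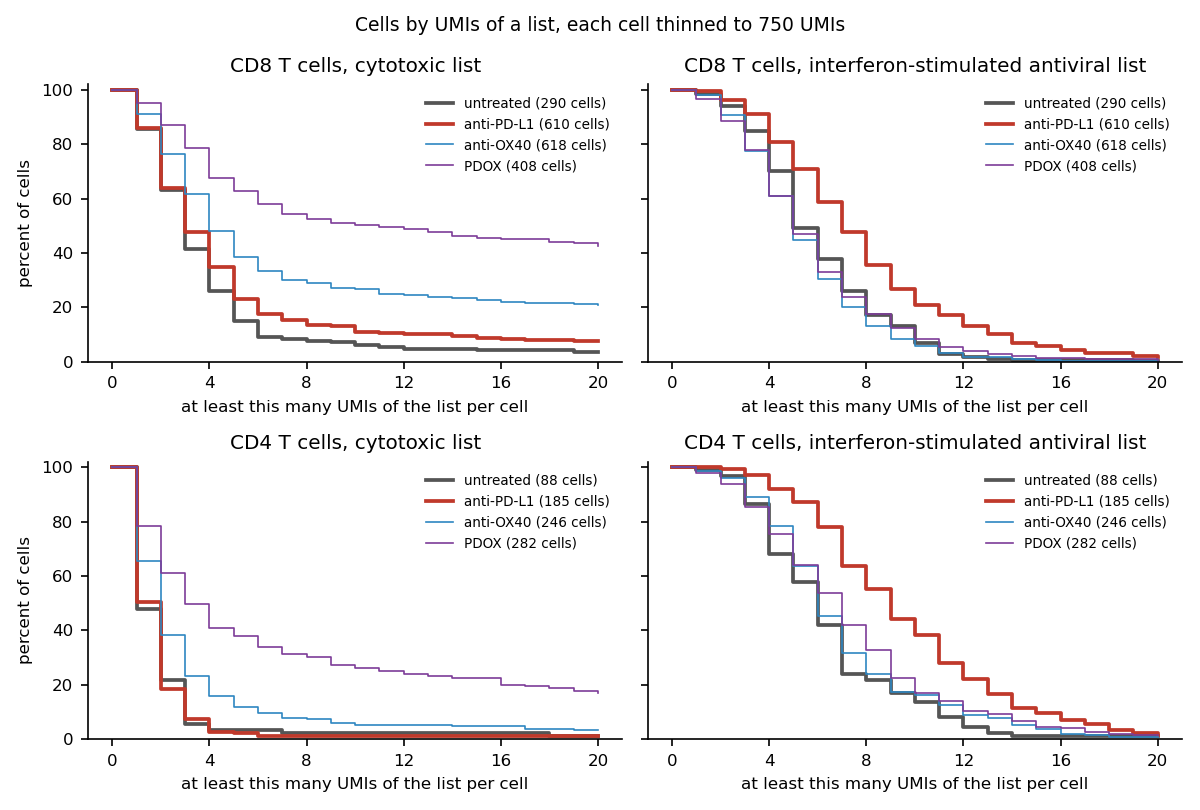
Percent of CD8 and CD4 cells (y axis) with at least the number of list UMIs on the x axis, each lineage-filtered cell thinned to 750 UMIs, with 1 curve per library in the order untreated, anti-PD-L1, anti-OX40 and PDOX (290, 610, 618 and 408 CD8 cells; 88, 185, 246 and 282 CD4 cells). For antiviral genes the anti-PD-L1 curve lies to the right of the others in both lineages, with 20.98% of CD8 and 38.4% of CD4 cells at 10 or more UMIs; for cytotoxic genes it lies between untreated and anti-OX40 CD8 cells.

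The higher level of antiviral genes was spread over the cells and was not carried by a few of them. After thinning, at least 3 antiviral UMIs were found in 84.8% of untreated and 91.0% of anti-PD-L1 CD8 cells, and in 86.4% and 97.3% of CD4 cells. At least 10 were found in 6.90% and 20.98% of CD8 cells and in 13.6% and 38.4% of CD4 cells. As deposited, the shares at 10 UMIs were 52.7% and 77.7% in CD8 and 53.1% and 80.1% in CD4 cells. The median depths, given for the cells of the rule, were 1641.5 and 1843 UMIs per CD8 cell and 1566.5 and 1616 per CD4 cell.

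Interferon-inducible GTPases, which attack the membranes of intracellular pathogens and are classical targets of interferon-γ, were higher as well. The 16 symbols of this list matched 17 gene entries, of which 11 entered in lineage-filtered cells, all above 1, and 6 were at least 1.5-fold higher. Their summed level was 7.60 and 12.6 UMIs per 10000 in all T cells of the rule and 8.12 and 13.3 in lineage-filtered cells, a ratio of 1.64 (1.52 to 1.77). The ratio was 1.63 (1.47 to 1.83) in CD8 and 1.74 (1.41 to 2.17) in CD4 cells. *Igtp* (IRGM3) was at 0.955 and 2.12 UMIs per 10000 in all lineage-filtered T cells, a ratio of 2.22 (1.78 to 2.78), and its ratio was 2.62 (1.85 to 3.79) in CD8 and 2.08 (1.20 to 3.83) in CD4 cells. It was found in 9.15% and 26.1% of CD8 cells and 13.3% and 26.5% of CD4 cells, and after thinning in 3.45% and 12.6%, and 6.82% and 15.1%. *Gbp2*, a guanylate-binding protein, had 41 and 231 UMIs, a ratio of 2.56 (1.83 to 3.67), and *Irgm1* 42 and 204, a ratio of 2.21 (1.58 to 3.16). *Tgtp2* was the lowest, at 1.04.

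Promoters are shown for the 6 interferon genes with the highest ratios among those at least 1.5-fold higher whose promoter window held the motif described next, so *Oasl2*, with a higher ratio and no match, is not among them. The windows are those RefSeq gives for GRCm38.p6 (mm10, the build of the files). The window runs from 250 bases before to 50 bases after a start site. Of the 37 antiviral and GTPase genes entered, with a single entry taken per symbol, 19 were at least 1.5-fold higher in all lineage-filtered T cells and 13 of those 19 had a window. The core of the interferon-stimulated response element was searched as GAAANNGAAA on either strand (read as TTTCNNTTTC on the other), with overlapping matches allowed, and is in capitals below. Each stretch is 60 bases, 5′ to 3′ on the strand of the gene.
*Isg15*, chr4:156200850-156200909, minus strand: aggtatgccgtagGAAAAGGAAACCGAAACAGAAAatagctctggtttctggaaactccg
*Gbp2*, chr3:142620579-142620638, plus strand: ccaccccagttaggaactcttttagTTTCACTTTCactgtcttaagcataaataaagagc
*Ifit3*, chr19:34583382-34583441, plus strand: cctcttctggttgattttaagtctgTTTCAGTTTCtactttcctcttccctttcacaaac
*Ifit1*, chr19:34640779-34640838, plus strand: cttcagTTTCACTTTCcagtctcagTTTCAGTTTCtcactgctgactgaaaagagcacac
*Igtp*, chr11:58199496-58199555, plus strand: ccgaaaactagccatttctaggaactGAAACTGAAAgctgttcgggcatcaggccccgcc
*Irgm1*, chr11:48871421-48871480, minus strand: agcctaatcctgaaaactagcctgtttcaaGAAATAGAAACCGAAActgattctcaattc

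In the *Isg15* promoter the match nearest to the start site began 66 bases before it and overlapped further copies upstream, and in *Ifit1* the nearest match began 85 bases before the start, with another copy upstream. The nearest match began 59 bases before the start in *Gbp2*, 122 in *Ifit3*, 34 in *Igtp* and 24 in *Irgm1*. The core was in the windows of 8 of the 13 genes at least 1.5-fold higher and of 10 of 14 other antiviral and GTPase genes with a window, while 1131 of all 32851 windows held it (3.44%). It was in the window of 1 of 11 granzyme, killer lectin and adhesion genes that were at least 1.5-fold higher in all lineage-filtered T cells. The gamma-activated sequence, searched as TTCNNNGAA, which reads the same on both strands, was in 2 of the 13, 6 of the 14 and 2 of the 11, and in 8.30% of all windows. These are matches of letters, and binding was not measured.

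Genes of antigen presentation by MHC class I were higher by a smaller factor and in nearly every member. Their summed level was 181 and 218 UMIs per 10000 in all T cells of the rule and 187 and 225 in lineage-filtered cells, a ratio of 1.20 (1.18 to 1.22) with 18 of 20 genes above 1, none past 1.5-fold and a median log2 ratio of 0.28. In lineage-filtered cells the ratio was 1.25 (1.22 to 1.28) in CD8 and 1.19 (1.14 to 1.25) in CD4 cells. *B2m*, the invariant light chain of MHC class I, was at 65.3 and 79.1 UMIs per 10000, a ratio of 1.21 (1.18 to 1.25). *Psmb9*, a subunit of the immunoproteasome, was past 1.5-fold in CD8 (1.67) and CD4 cells (1.72), *H2-T23* in CD8 cells (1.57) and *Tapbp*, which loads peptides, in CD4 cells (1.61). *H2-Q7* was at 1.55 in CD4 cells, but it shares reads with near-identical H2-Q genes and is uncertain. The members below 1 were *Nlrc5*, the transactivator of MHC class I genes (0.88), and *Erap1*, which trims peptides (0.94). *B2m*, *Nlrc5* and *Erap1* were chosen after their values were seen.

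Cytotoxic genes were higher in anti-PD-L1 CD8 cells, while their summed level was about equal in CD4 cells. The summed level of granzymes and other granule proteins, killer cell lectin receptors and *Ccl5* was 56.0 and 106 UMIs per 10000 in CD8 cells of the rule, a ratio of 1.90 (1.82 to 1.97), and 54.7 and 109 in lineage-filtered CD8 cells, a ratio of 1.99 (1.91 to 2.08). Of the 12 genes that entered, 11 were above 1, 5 were at least 1.5-fold higher and none was 1.5-fold lower (median log2 ratio 0.47). Of these 5, *Gzma*, *Gzmb*, *Klrk1* and *Klrc1* had few untreated UMIs and entered through the anti-PD-L1 library. The tally and its median are therefore no support for a direction. In lineage-filtered CD4 cells the level was 18.5 and 18.3, a ratio of 0.989 (0.855 to 1.15). The lineages were not compared by a test. NK cell markers were at 0.594 and 1.01 UMIs per 10000 in these CD8 cells (ratio 1.69), of which the defining receptor genes *Ncr1* had 0 and 1 and *Klrb1c* 1 and 2, and *Klre1*, a lectin receptor, 2 and 33.

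*Gzma*, a granule serine protease of killer cells, had 15 and 683 UMIs in lineage-filtered CD8 cells, which is 0.287 and 5.49 UMIs per 10000, a ratio of 19.1 (11.5 to 34.3). In the CD8 cells of the rule it had 38 and 756 UMIs and a ratio of 8.25 (5.96 to 11.8). The UMIs were concentrated. They came from 14 untreated and 55 anti-PD-L1 cells, the largest number in a cell was 2 and 105, and the top 1% of anti-PD-L1 CD8 cells held 57.5% of them. The share of CD8 cells with *Gzma* was 4.42% and 8.59% as deposited and 1.38% and 5.90% thinned, against 3.06% and 3.06%, and 2.27% and 1.08%, in CD4 cells, where it had 3 and 32 UMIs. The untreated CD8 share therefore lay near the CD4 share. In the anti-PD-L1 library 2 CD4 cells held 28 of the 32 UMIs, so the CD4 share does not measure background alone. Whether the untreated CD8 share was above background cannot be told from it. *Gzmb*, which cleaves caspases in target cells, had 7 and 154 UMIs, a ratio of 9.24 (4.38 to 23.4), and 3.66 in the CD8 cells of the rule. It was found in 1.58% and 6.56% of CD8 and 3.06% and 2.04% of CD4 cells, and in 1.03% and 4.10%, and 2.27% and 0.541%, after thinning. *Gzmk* had 1 and 27 UMIs.

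*Ccl5*, a chemokine stored by memory and effector CD8 T cells, had the most cytotoxic-list UMIs. It was at 23.1 and 60.3 UMIs per 10000 in lineage-filtered CD8 cells, a ratio of 2.61 (2.46 to 2.78), and it was found in 65 and 182 cells (20.5% and 28.4%; thinned, 15.5% and 21.6%). The ratio of its level was larger than that of its share of cells. In CD4 cells its ratio was 0.837 (0.654 to 1.08), with shares of 7.14% and 11.7%. *Nkg7*, a granule membrane protein, had a ratio of 1.39 (1.28 to 1.52) in CD8 cells, *Gzmm* 1.31, *Serpinb6b* 1.38 and *Ctsw* 1.14, and *Cst7* was at 0.96.

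Among killer cell lectin receptors, *Klrk1* and *Klrc1* were found in few CD8 cells, while *Klrd1* was found in 46.4% of untreated and 52.5% of anti-PD-L1 cells. *Klrk1* (NKG2D), an activating receptor for stress ligands, had 14 and 155 UMIs in lineage-filtered CD8 cells, a ratio of 4.65 (2.69 to 8.70), and 3.46 in the CD8 cells of the rule. It was found in 2.52% and 8.59% of CD8 and 2.04% and 1.02% of CD4 cells (CD8 thinned, 2.07% and 4.43%). *Klrc1* (NKG2A), an inhibitory partner of CD94, had 9 and 104 UMIs, a ratio of 4.85 (2.46 to 10.9) in lineage-filtered CD8 cells and 4.31 in those of the rule. Its cells were 1.89% and 6.72% of CD8 and 0% and 1.02% of CD4 cells (CD8 thinned, 0.345% and 3.28%), and reads of *Klrc1* can be shared with its close copy *Klrc2*, so the value is uncertain between them. *Klrd1* (CD94) was at 4.18 and 5.76 UMIs per 10000, a ratio of 1.38 (1.18 to 1.61). *Klrg1*, a marker of terminal effector cells, had 0 and 26 UMIs in lineage-filtered CD8 cells, at least 3.64-fold higher against a floor of 3 UMIs per library and with an exact interval of the ratio from 2.75. In the CD8 cells of the rule it had 3 and 26 UMIs (ratio 3.59, 1.10 to 18.5), and in all lineage-filtered T cells 17 and 36 (ratio 0.964), because 15 of the untreated UMIs came from 2 CD4 cells.

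*Ifitm1*, an interferon-inducible membrane protein that blocks viral entry, had no UMI in 317 untreated lineage-filtered CD8 cells, which allows a level of up to 3 UMIs, and 370 UMIs in the 640 anti-PD-L1 cells (2.98 UMIs per 10000), at least 51.8-fold higher when the untreated library is set to the floor, and the exact interval of the ratio, which also covers the counting error of the 370 UMIs, starts at 41.9. In the CD8 cells of the rule it had 0 and 584 UMIs, at least 80.7-fold higher against the floor and with an interval from 65.4, while the CD4 cells of the rule had 85 and 49 UMIs in 2 and 5 cells and the lineage-filtered CD4 cells 0 and 4. The 370 UMIs came from 34 cells (5.31%; thinned, 0% and 2.62%), and 11 cells had 3 or more. All 11 also had UMIs of *S100a4*, *S100a6* and *Lgals3*, which were found in 7.10%, 11.6% and 6.60% of the 606 anti-PD-L1 CD8 cells without *Ifitm1*. Of the 11, 6 had *Gzma*, 8 *Klrc1*, 9 *Klrk1* and 10 *Ccl5*. The 34 cells held 48.7% of the *S100a4* and 60.1% of the *Lgals3* UMIs of the anti-PD-L1 CD8 cells. Reads of Ifitm genes can be shared among close copies.

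Genes of adhesion and migration were higher in anti-PD-L1 CD8 cells. Their summed level was 85.0 and 138 UMIs per 10000 in the CD8 cells of the rule, a ratio of 1.63 (1.58 to 1.68), and 76.9 and 119 in lineage-filtered CD8 cells, a ratio of 1.55 (1.496 to 1.61). In lineage-filtered CD8 cells 22 of 24 genes were above 1 and 10 were at least 1.5-fold higher (median log2 ratio 0.51). Some of the 10, such as *S100a4* and *Lgals3*, had few untreated UMIs and entered through the anti-PD-L1 library. In the CD4 cells the result depended on the marked cells. The ratio was 0.846 (0.804 to 0.890) over the CD4 cells of the rule, with 4 of 18 genes 1.5-fold lower, and 1.28 (1.19 to 1.36) in lineage-filtered CD4 cells, with 13 of 14 genes above 1 and 3 at least 1.5-fold higher. Those 3 were *Vim*, the intermediate filament vimentin (4.28 and 8.18 UMIs per 10000, ratio 1.91, 1.45 to 2.56), *Ly6a* and *S100a11* (1.87). The untreated CD4 cells left out were 4 and the anti-PD-L1 CD4 cells left out were 1.

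*S100a4*, a calcium-binding protein of motile cells, had 25 and 474 UMIs in lineage-filtered CD8 cells, 0.479 and 3.81 UMIs per 10000, a ratio of 7.96 (5.33 to 12.4), and 3.61 in the CD8 cells of the rule. It was found in 2.52% and 8.91% of CD8 cells (thinned, 2.07% and 6.56%) and in 6.12% of CD4 cells of both libraries, so the untreated CD8 share lay below that of CD4 cells. *S100a6*, a related protein, had 73 and 716 UMIs, a ratio of 4.12 (3.23 to 5.31), in 7.26% and 13.1% of CD8 cells. *Lgals3*, galectin-3, had 23 and 253 UMIs, a ratio of 4.62 (3.01 to 7.42). *Lgals1*, galectin-1, was at 5.54 and 14.2 UMIs per 10000, a ratio of 2.56 (2.26 to 2.91) in CD8 and 1.35 (1.06 to 1.74) in CD4 cells. Its share of CD8 cells was 33.8% and 37.3% (thinned, 19.7% and 24.3%), so the level differed more than the number of cells. *Ly6a* (Sca-1), an interferon-inducible surface protein of activated T cells, had 57 and 401 UMIs in CD8 cells, a ratio of 2.95 (2.23 to 3.97), and was found in 10.1% and 31.6% (thinned, 6.55% and 18.7%). In CD4 cells it was at 3.40 and 6.49 UMIs per 10000, a ratio of 1.91 (1.40 to 2.66), in 27.6% and 51.0% of the cells (thinned, 10.2% and 30.3%), but 0.755 in the CD4 cells of the rule. *Itgb1*, the integrin β1 chain, had a ratio of 2.29 (1.55 to 3.51) in CD8 cells and 5 and 88 UMIs in 4 and 30 CD4 cells, a ratio of 8.12 (3.35 to 25.6). *Tmsb10*, a thymosin that binds actin, was at 90.8 and 144 UMIs per 10000 in CD8 cells, a ratio of 1.59, and at 77.5 in untreated CD4 cells with a ratio of 1.55.

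*Id2*, a transcriptional regulator of effector CD8 T cells, was at 2.82 and 4.15 UMIs per 10000 in lineage-filtered CD8 cells, a 1.47-fold difference (1.22 to 1.78). Its ratio in CD4 cells was 1.22 (0.758 to 2.02). The list of effector transcription factors had a ratio of 1.31 (1.16 to 1.48) in CD8 cells, with 4 genes entered and none past 1.5-fold. The genes the study chose around *Id2* in CD8 cells had a ratio of 1.90 there, with 7 of 11 entered genes at least 1.5-fold higher, and since the study chose them on these samples they are no independent evidence of direction. *Cxcr3*, a chemokine receptor of effector T cells, had 49 and 110 UMIs in all lineage-filtered T cells, a ratio of 1.02 (0.724 to 1.46).

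**Figure D4:**
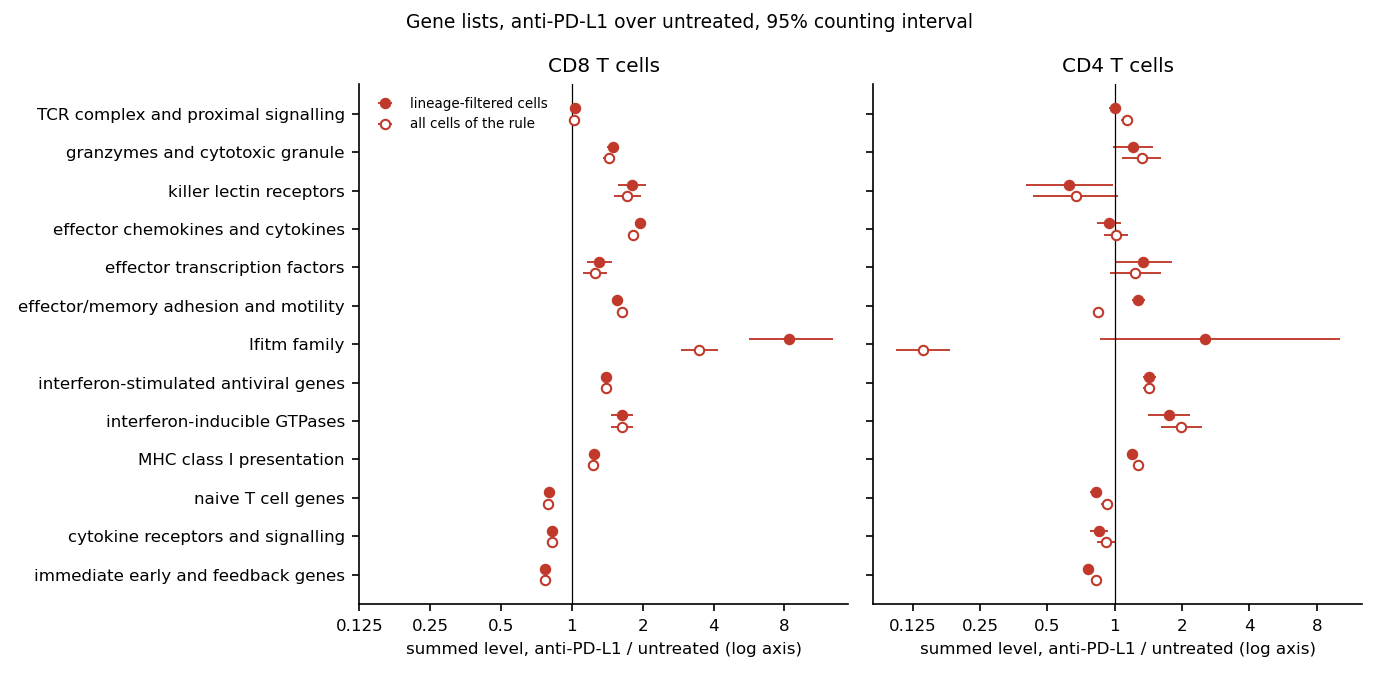
Ratio of the summed level of each gene list, anti-PD-L1 over untreated (x axis, log scale), in CD8 (left) and CD4 cells (right); filled points are lineage-filtered cells, open points all cells of the rule, and bars are 95% counting intervals. Antiviral genes and GTPases lie right of 1 in both lineages, granzyme, killer lectin and chemokine lists right of 1 in CD8 cells, naive and immediate early genes left of 1, and the adhesion list of CD4 cells crosses from 0.846 to 1.28.

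CD8 cells that carried many cytotoxic transcripts were more frequent in the anti-PD-L1 library. At least 10 cytotoxic UMIs were found in 19.9% (15.6 to 24.7) of untreated and 28.6% (25.1 to 32.3) of anti-PD-L1 lineage-filtered CD8 cells, against 3.06% and 2.55% of CD4 cells. After thinning the CD8 shares were 6.21% and 11.1% and the CD4 shares 2.27% and 1.08%. These 63 and 183 CD8 cells held 66.8% and 86.5% of the cytotoxic UMIs of CD8 cells, with medians of 2258 and 2520 UMIs per cell. The lists that the split did not use were then compared within the cells above and below it, a split chosen after the data were seen.

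The interferon lists had ratios above 1 on both sides of that split. The split does not make the libraries equal in cytotoxic transcripts, since the granzyme and granule list had a ratio of 1.59 above it and 0.974 below it and the killer lectin list 2.17 and 1.02, so lists that go with cytotoxicity cannot be compared across it. In the 254 and 457 CD8 cells under 10 cytotoxic UMIs, the antiviral list had a ratio of 1.38 (1.32 to 1.45), the GTPases 1.76 (1.55 to 2.01) and MHC class I 1.26 (1.23 to 1.30). In the cells with at least 10 they were 1.44 (1.34 to 1.55), 1.44 (1.18 to 1.77) and 1.20 (1.15 to 1.25). The same limit holds for the adhesion list and its genes, whose values are given without comparing the sides. The adhesion list was at 1.11 (1.05 to 1.16) under the split and at 116 and 196 UMIs per 10000, a ratio of 1.69 (1.60 to 1.78), above it. *S100a4* had a ratio of 5.61 (3.72 to 8.85) above the split, and *Lgals1* 2.31 (1.99 to 2.70) above and 1.29 below. *Ly6a* was at 2.17 above and 3.37 below. Naive genes were lower on both sides, at 0.789 (0.735 to 0.847) and 0.853 (0.820 to 0.887). The CD8 cells without any cytotoxic UMI were 24 and 27, in which the antiviral list had a ratio of 1.71 (1.42 to 2.08), the GTPases 3.503 (1.94 to 6.77) and the naive list 0.929 (0.778 to 1.11). In the same cells the list of sex-linked genes, kept as a check, had 19 and 80 UMIs, a ratio of 3.28 (1.97 to 5.73). The ratios of so few cells are therefore uncertain beyond their counting intervals.

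Genes of naive T cells were lower in anti-PD-L1 cells, each by a small factor. Their summed level was 97.0 and 80.5 UMIs per 10000 in all lineage-filtered T cells, a ratio of 0.830 (0.809 to 0.850), and 0.834 in the cells of the rule. In lineage-filtered cells 3 of 16 genes were above 1 and none was past 1.5-fold (median log2 ratio −0.21). In lineage-filtered CD8 cells the level was 95.6 and 76.5 (0.801, 0.774 to 0.829). In the CD4 cells of the rule the ratio was 0.925 (0.868 to 0.985), with 5 of 12 genes above 1. In lineage-filtered CD4 cells the level was 101 and 83.8 (0.825, 0.774 to 0.880). *Klf2*, which maintains quiescence and homing receptors, was at 25.7 and 19.2 UMIs per 10000 in all T cells, a ratio of 0.747 (0.712 to 0.784), and at 0.683 in CD8 and 0.697 in CD4 cells. *Ccr7*, the chemokine receptor for lymph node entry, was at 0.786 in all, 0.746 in CD8 and 0.769 in CD4 cells, and *Lef1*, a factor of the naive state, at 0.804, 0.850 and 0.791. *Klf2*, *Ccr7* and *Lef1* were named after their values were seen.

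Immediate early genes, which signals from the T cell receptor or handling of the cells switch on within minutes, were lower too, together with the feedback genes listed with them. The summed level was 157 and 123 UMIs per 10000 in all lineage-filtered T cells, a ratio of 0.782 (0.767 to 0.797), with none of 23 genes above 1 and 3 at least 1.5-fold lower. It was 0.768 in CD8 and 0.761 (0.724 to 0.800) in CD4 cells. *Fos* was at 3.95 and 2.43 UMIs per 10000, a ratio of 0.616 (0.541 to 0.702), in 44.2% and 31.9% of CD8 cells (thinned, 25.2% and 14.8%). In CD4 cells its interval included 1 (0.719, 0.483 to 1.08). *Nr4a1*, which reports T cell receptor signals, had 130 and 158 UMIs, a ratio of 0.553 (0.436 to 0.703), and *Fosb* was at 0.605. *Btg1*, an antiproliferative gene, was at 38.6 and 27.4 UMIs per 10000 (0.709, 0.681 to 0.738). Cytokine receptors and their signaling genes were at 0.868 (0.838 to 0.899), with 4 of 24 genes above 1 and *Il4ra*, the interleukin-4 receptor chain, at 0.641, and *Bcl2*, a survival factor named after its value was seen, at 0.771. *Il2*, the T cell growth factor, had 87 and 90 UMIs, a ratio of 0.471 (0.347 to 0.640), and was found in 12.6% and 6.72% of CD8 cells (thinned, 6.21% and 3.28%). *Pgk1*, a glycolytic enzyme, was at 0.576.

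The lowest genes by rank were mostly predicted genes and pseudogene-like loci. In lineage-filtered T cells they were *Gm3839* (0.256), *Gm8797* (0.350), *Gm8730* (0.390, 0.379 to 0.401), *Gm12355* (0.317), *Gm6576*, *Gm10116*, *Amd1* (0.387, 0.283 to 0.528), *Nutf2* (0.415), *Gm20186* (0.520) and *Ube2v1* (0.401), of which *Amd1* makes a precursor of polyamines. Predicted genes of this kind can share reads with near-identical copies and their values are uncertain. *Gm8730* was at 96.7 and 37.7 UMIs per 10000, and at 24.8 and 31.9 in the anti-OX40 and PDOX libraries, so the untreated library stood apart from the other 3. *Gm9843* and *Gm10073*, of the same kind, were higher in anti-PD-L1 CD4 cells, at 1.73 and 1.95. *Gm26917* was at 23.8 and 38.3 UMIs per 10000 in CD4 cells (1.61, 1.43 to 1.81).

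Among transcripts that rare cells also carry, *Gsto1*, a glutathione transferase, had a ratio of 2.75 (2.18 to 3.52) in all lineage-filtered T cells and was found in 76 and 395 of them (11.4% and 31.2%) with at most 3 and 4 UMIs in a cell. In the T cells of the rule it was at 12.7 and 47.2 UMIs per 10000. *Lyz2*, the lysozyme of myeloid cells, was found in 33.7% and 23.4% of lineage-filtered T cells with at most 5 and 3 UMIs in a cell, a ratio of 0.568 (0.483 to 0.668), and at 31.3 and 13.7 UMIs per 10000 in the cells of the rule. Both genes thus had low counts in many T cells, in the direction in which the marked cells of the same library differed, and the part of free RNA in this was not tested. The lowest genes of CD4 cells of the rule were *Tyrobp*, *Lyz2*, *Ifitm3*, *Plac8*, *Cd74* and *BC100530*, of which *Tyrobp* had 109 and 4 UMIs and, without the marked cells, 0 and 4.

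Transcripts of the PD-1 axis were few. The list of PD-1 ligands and their partners (*Cd274*, *Pdcd1lg2*, *Cd80*, *Cd86* and *Rgmb*) had 34 and 115 UMIs in all lineage-filtered T cells, a ratio of 1.54 (1.04 to 2.33), and 15 and 73 UMIs in CD8 cells, a ratio of 2.04 (1.16 to 3.84). In the cells of the rule these ratios were 1.34 (1.02 to 1.78) and 2.57 (1.504 to 4.66), and CD4 cells had 6 and 15 UMIs (1.15, 0.423 to 3.63). In lineage-filtered T cells *Pdcd1* (PD-1) had 3 and 16 UMIs, *Pdcd1lg2* (PD-L2) 3 and 6 and *Cd80* 0 and 3. *Cd274*, the target of the antibody, had 11 and 43 UMIs, a ratio of 1.78 (0.902 to 3.83), and in the T cells of the rule 37 and 119 UMIs, a ratio of 1.49 (1.02 to 2.21). The antibody blocks the protein, so the transcript does not check the treatment. Other inhibitory receptors had a summed ratio of 1.01 (0.919 to 1.12). *Foxp3*, the factor of regulatory T cells, had 10 and 15 UMIs, found in 3 of 98 and 3 of 196 CD4 cells against 0 of 317 and 3 of 640 CD8 cells. *Mki67*, a marker of dividing cells, had 14 and 27 UMIs, a ratio of 0.878 (0.445 to 1.81). Of the remaining lists in lineage-filtered T cells, the T cell receptor complex was at 1.01, homing receptors at 1.02, GIMAP genes at 0.958, heat shock genes and glycolysis at 1.04, the cell cycle at 1.05, costimulatory genes at 0.896 (0.844 to 0.953), regulatory T cell genes at 1.17 (1.06 to 1.30) and actin regulators at 1.16. For the cell cycle list, 7 of 8 entered genes were above 1 and 2 were at least 1.5-fold higher (median log2 ratio 0.33). Sex-linked genes were at 0.996.

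The 2 other treated libraries are given beside anti-PD-L1 cells for orientation, and every comparison with untreated cells shares the same untreated library. In lineage-filtered CD8 cells, the antiviral list was at 67.7 UMIs per 10000 in untreated, 94.0 in anti-PD-L1, 61.5 in anti-OX40 and 69.2 in PDOX cells, and in CD4 cells at 78.7, 112, 83.0 and 89.1. Anti-PD-L1 cells were thus the highest of the 4 in both lineages, by 1.53 (1.48 to 1.57) over anti-OX40 and 1.36 (1.32 to 1.40) over PDOX in CD8 cells. The GTPases stood 1.81 and 1.41 times above these libraries, *Ifit1* 4.63 and 1.82 times and *Isg15* 3.25 and 1.74 times. MHC class I genes did not stand above PDOX (0.994, 0.976 to 1.01). Cytotoxic genes had the other order, at 54.7, 109, 261 and 410, which puts anti-PD-L1 CD8 cells at 0.419 of anti-OX40 and 0.266 of PDOX. *Ccl5* was at 23.1, 60.3, 199 and 312 UMIs per 10000, and *Gzma* at 0.287, 5.49, 6.36 and 17.8, where anti-PD-L1 and anti-OX40 cells lay close (0.864). *Ifitm1* was at 2.98, 1.44 and 4.38 in the 3 treated libraries, and *Lgals1* at 14.2, 14.2 and 29.4. The immediate early and feedback list was at 155, 119, 112 and 91.8 UMIs per 10000 in lineage-filtered CD8 cells. Naive genes were at 95.6, 76.5, 69.5 and 51.4, so untreated CD8 cells were the highest of the 4 for both lists. *Nr4a1* in CD8 cells was lower in both other treated libraries, with anti-PD-L1 cells 2.50 and 4.60 times above them.

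**Figure D5:**
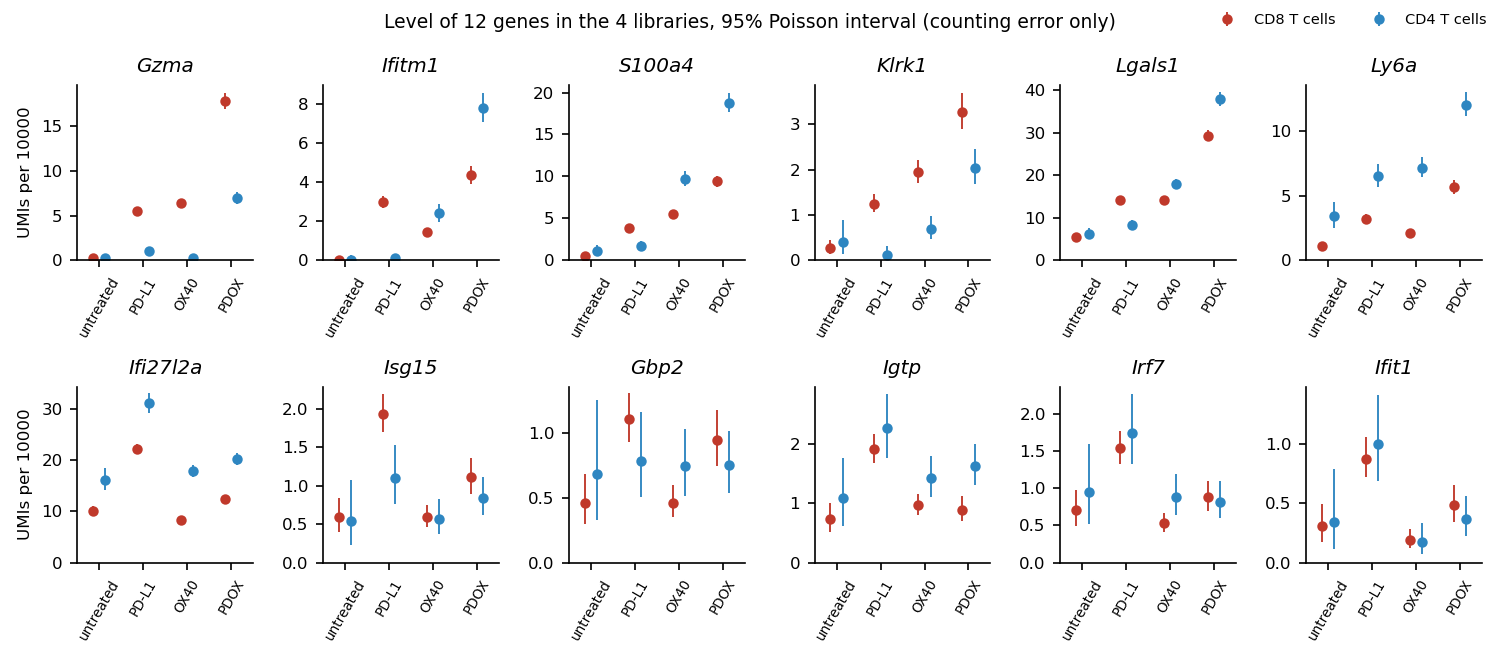
Level of 12 genes in lineage-filtered CD8 (red) and CD4 cells (blue) of the 4 libraries (x axis), in UMIs per 10000 (y axis) with exact 95% Poisson intervals. *Ifi27l2a*, *Isg15* and *Ifit1* are highest in the anti-PD-L1 library in CD8 cells, while *Gzma*, *S100a4*, *Klrk1* and *Lgals1* are highest in PDOX.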

How the data were processed

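Single-cell RNA sequencing was run by the authors on T cells enriched from blood (10x Chromium Single Cell 3′, Cell Ranger 2.1.1), and the processing notes name mm10 and Seurat version 2; the annotation release is not given in the sources used here. The deposited values are raw UMI counts per gene and cell, not normalized, of 27998 genes. The study's text gives more cells per condition than the 862 barcodes held here for untreated mice. Untreated and anti-PD-L1 libraries held 2392650 and 4969885 UMIs.

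Gene numbers and totals do not include 13 mitochondrial genes, 109 genes of ribosomal proteins and 8 of hemoglobin. UMIs were summed per library and lineage and expressed per 10000, and a gene entered with at least 100 UMIs in both libraries together. With 1 library per group no test was made and 1.5-fold was used as a limit of size. A library without UMIs was set to a floor of 3 UMIs. Intervals are at 95% and, like floors, cover counting error only. For shares of cells at equal depth, cells were thinned to 750 UMIs (seed 20230117). Doublets were not removed, and an alternative leaves out the 5% of cells with the highest Scrublet score.

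Named were the 10 highest and lowest genes of all T cells and the 6 of CD8 and CD4 cells, ranked by the interval bound nearest to 1, list members past 1.5-fold (up to 8 a list), PD-1 axis genes, *Foxp3*, *Mki67* and *Id2*, *Lgals1*, *Klrk1*, *Klrc1*, *Klrg1*, *Gzma*, *Gzmb*, *Gzmk*, *Cxcr3* and *Ly6a*; other names were chosen after their values were seen. The cells, members and gene lists were chosen with earlier results of these data known. Of the list members, *Trac*, *Trbc1*, *Trbc2*, *Cd244a*, *Ifi206*, *Ifi208*, *Ifi209*, *Ifi213*, *Pclaf*, *Ighm*, *Ighd* and some gamma-delta receptor genes were not matched by symbol. Python 3.11.15, numpy 2.4.6, scipy 1.17.1, pandas 2.3.3, scanpy 1.11.5 and, for TMM factors, edgeR 4.0.16 were used, and the scripts were tested on simulated data. Alternatives covered scaling, cell weight, cell and gene limits, thinning, doublets and other-lineage cells. Results of some list members are not reported here.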

Additional observations from a re-analysis of the deposited data

Results flagged for a closer look

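Over all cells of the rule, 17 genes were past 1.5-fold in opposite directions in CD8 and in CD4 cells, which marked them for a closer look. The number of genes that entered in both lineages is not given beside them. No gene was called so in lineage-filtered cells, but a call needs enough UMIs to enter in both lineages. Some of the 17, such as *Lgals3* and *Ifitm1*, fell below that entry limit in lineage-filtered CD4 cells. For such genes the missing call does not show that the opposite directions were gone. The difference between lineages was not tested. The ratios of anti-PD-L1 to untreated in CD8 and CD4 cells were 3.61 and 0.525 for *S100a4*, 3.89 and 0.497 for *S100a6*, 3.79 and 0.173 for *Lgals3* and 2.15 and 0.555 for *Anxa2*. They were at least 80.7 against a floor of 3 UMIs (interval from 65.4) and 0.308 for *Ifitm1*, 1.65 and 0.0401 for *Ifitm3*, 1.58 and 0.0905 for *Plac8*, 3.02 and 0.461 for *Pglyrp1*, 1.51 and 0.488 for *Fth1* and 1.68 and 0.591 for *Prr13*. Genes with high counts in a few marked cells were *AA467197* (70.9 and 0.302), *BC100530* (70.1 and 0.138), *Gsto1* (29.0 and 0.625), *Asprv1* (13.9 and 0.510), *Prss27* (15.9 and 0.558), *Emp1* (7.49 and 0.171) and *Plet1* (5.39 and 0.595). The CD4 cells left out by the limit of 10 UMIs of another lineage were 4 untreated and 1 anti-PD-L1 cell. Without them, the CD4 ratios were 1.61 for *S100a4*, 1.31 for *S100a6* and 5.08 for *Plac8* (2 and 22 UMIs).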

How the results depend on the processing

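Of the alternatives, 714 of 935 list ratios and 862 of 1087 single gene ratios moved by less than their counting interval, 196 and 203 moved further and 25 and 22 changed direction, while 57 of 100 gene counts and 96 of 126 shares stayed within their limits. The antiviral list stayed above 1 in CD8 and CD4 cells, the naive list below 1 in both and the cytotoxic and adhesion lists above 1 in CD8 cells under every alternative printed here. No paired analysis was possible because the labels give no replicate numbers and each group is 1 library. Alternatives that leave out cells by 5, 10 or 20 UMIs of another lineage, alone or with another choice, were chosen after seeing the data. The cause of a change was not tested. CD4 cells were few (197 in the anti-PD-L1 library), and the Ifitm list of CD4 cells with 2 coreceptor UMIs could give no value, since the untreated library had none.

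The counts of genes past 1.5-fold (higher, then lower) were 138 and 146 of 4964 genes in all T cells and 120 and 97 of 2914 in CD8 cells. In CD4 cells they were 38 and 34 of 797. At 2-fold these counts became 46 and 35, 48 and 10, and 2 and 17. They were 2617 and 2513, 3084 and 2498, and 3246 and 2968 with at least 1 UMI, 297 and 403, 277 and 305, and 139 and 98 with at least 50, and 66 and 38, 49 and 19, and 15 and 12 with at least 200. Thinned to 750 UMIs they were 70 and 51, 47 and 20, and 17 and 8, and without cells with 2 UMIs of other cell types 69 and 71, 71 and 35, and 22 and 13. With 2 coreceptor UMIs the CD4 counts were 10 and 2. TMM scaling gave 94 lower in all and 57 lower in CD8 cells, and leaving out cells at 10, 20 and 5 UMIs gave 18, 18 and 13 lower in CD4 cells. Other gene limits, thinning and cell filters change the number of genes that enter, which is not given with these counts. Such counts are therefore not shares and cannot be set against those of the main setting.

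The adhesion ratio in CD4 cells (0.846) was 1.28, 1.28 and 1.11 without cells at 10, 20 and 5 UMIs, 1.36 without cells at 2 UMIs of other types, 1.03 with equal weight per cell, 1.06 thinned and 0.775 with at least 2 Cd3 UMIs. Combined with leaving out cells at 10 UMIs, it was 1.34 under TMM, 1.17 with equal weight and 1.22 thinned. In CD8 cells (1.63) it was 1.55, 1.55 and 1.51 at 10, 20 and 5 UMIs, 1.24 at 2 UMIs, 1.72 without high Scrublet scores, 1.71 under TMM, 1.35 with equal weight and 1.39 thinned, and, combined, 1.32 with equal weight and 1.37 thinned. The cytotoxic ratio in CD8 cells (1.90) was 1.99 and 2.01 at 10 and 20 UMIs, 1.99 under TMM and with 2 Cd3 UMIs, 1.68 with equal weight and 1.75 thinned, and, combined, 2.07, 1.69 and 1.77. In CD4 cells (1.10) it was 0.397 with 2 coreceptor UMIs and 0.940 combined and thinned. The antiviral ratio was 1.47 under TMM in CD8 cells (1.40), 1.56 thinned in CD4 cells (1.43) and 1.57 combined and thinned.

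The naive ratio in CD8 cells (0.788) was 0.827 under TMM, 0.828 with equal weight, 0.850 thinned and 0.824 at 2 UMIs, and, combined, 0.831, 0.830 and 0.853. In CD4 cells (0.925) it was 0.825, 0.825 and 0.845 at 10, 20 and 5 UMIs, 0.833 at 2 UMIs, 0.861 with equal weight and 0.867 thinned, and, combined, 0.866, 0.839 and 0.840. The Ifitm list of CD4 cells (0.139) was 2.54, 2.54, 2.14 and 2.18 at 10, 20, 5 and 2 UMIs, and that of all T cells (1.38) 0.947 with 500 to 2500 genes. With 2 coreceptor UMIs the CD4 ratios were 0.739 for granzymes (1.32), 0.969 for the T cell receptor complex (1.13), 0.819 for the cell cycle (1.20) and 0.777 for costimulatory genes (1.19). At 2 UMIs of other types the receptor complex was 0.965 in CD4 cells and regulatory T cell genes 0.931 in all (1.13). Thinned, the cell cycle was 0.929 in CD4 and 0.978 in CD8 cells (1.07) and costimulatory genes 1.02 in all (0.899). Actin regulators in CD4 cells (1.03) were 0.982 under median-of-ratios scaling and 0.991 over a total of all genes.

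Single genes that changed direction were *Ly6a* in CD4 cells (0.755), at 1.91, 1.91, 1.87 and 2.79 at 10, 20, 5 and 2 UMIs, 1.06 with 2 coreceptor UMIs, 1.56 with equal weight and 1.73 thinned, and *Plac8* there (0.0905), at 5.08, 5.08, 5.23, 3.15 and 3.13 with 2 coreceptor UMIs. *Ifitm3* in CD4 cells (0.0401) was 1.38, 1.38, 1.27 and 1.94, *Ccl4* in CD8 cells (0.442) 1.17, 1.16 and 1.07, and 1.10 with 2 Cd3 UMIs, *Slpi* in all (0.252) 1.54 at 2 UMIs and *Lgals3* in all (1.29) 0.972 with 500 to 2500 genes.

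Of the shares thinned to 750 UMIs (untreated, then anti-PD-L1), those with at least 3 cytotoxic UMIs were 40.7% and 47.2% in CD8 and 5.43% and 7.53% in CD4 cells, against 69.8% and 76.4%, and 22.5% and 25.4%, not thinned, and 56.8% and 60.1%, and 12.3% and 14.8%, at 1000 UMIs. At 2 UMIs of other types the anti-PD-L1 CD8 share was 42.6%. For antiviral genes they were 84.8% and 91.2% in CD8 cells, against 93.5% and 98.5% not thinned and 92.8% and 97.2% at 1000, and in CD4 cells 97.1% in untreated not thinned (87.0%) and 98.8% and 99.4% at 1000. For adhesion they were 80.1% and 87.6% in CD8 cells, against 93.8% and 97.2% not thinned and 89.9% and 95.01% at 1000, and 82.6% and 86.6% in CD4 cells, against 94.1% and 95.9% not thinned and 96.9% at 1000 in anti-PD-L1 cells. The CD4 share of T cells was 9.95% and 10.9% at 1000 UMIs, 9.002% and 9.72% at 750, and the CD8 share 41.7% and 43.0% at 750. The *Foxp3* share of anti-PD-L1 CD4 cells (1.08%) was 0% at 2 UMIs of other types.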
